A study of Homo sapiens with 6 samples.

Results

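The nuclear pore proteins and karyopherins are the genes that build the channel through the nuclear envelope and the soluble receptors that carry cargo through it. They were taken by gene symbol: symbols that begin with NUP, IPO, XPO or NXT and a digit or with KPNA, KPNB or TNPO, and a short set of named genes such as RANBP2, RANGAP1, SEH1L, NDC1, POM121 and CSE1L. Of 14812 named genes 53 met the rule, 51 of them protein-coding, 1 a pseudogene (NUP210P1) and 1 a noncoding neighbour (NUP50-DT). KPNA2, NUP62, NXF1, RAN, SEC13, TPR and XPO1 were not analysed here.

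The samples are HuH7 cells, a human hepatoma line, transfected with 1 of 2 gapmers, short oligonucleotides whose DNA centre, between modified ends, directs RNase H to a complementary RNA. In 3 arrays the cells received a control gapmer and in 3 a gapmer against EGOT, a long noncoding RNA, at 50 pmol per well. All 6 samples also carried a plasmid for PKR (0.3 µg per well), a kinase that double-stranded RNA switches on, with a carrier plasmid. Poly I:C, a mimic of viral double-stranded RNA, was given to all of them to induce EGOT. RNA was taken 36 hours after transfection. The sequences given for the EGOT gapmer and the control gapmer were as follows, shown because they are the labelled difference between the groups.
EGOT gapmer: agagacacttagaaga
control gapmer: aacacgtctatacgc
The comparison asks which transcripts differ with the EGOT gapmer in cells that all have PKR and poly I:C. Each group rests on 1 gapmer, and no sample lacked PKR and poly I:C. The labels do not tell whether replicates came from different cultures, so the p-values reflect only how much these samples varied, which could be technical.

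As background, the nuclear pore complex is a ring-shaped assembly with an outer ring, an inner ring, membrane-anchored subunits, a central channel lined by proteins with phenylalanine-glycine repeats, filaments on the cytoplasmic side and a basket on the nuclear side. Importins bind cargo in the cytoplasm and release it in the nucleus on binding Ran-GTP, whereas exportins bind cargo together with Ran-GTP and release it when the nucleotide is hydrolysed. Importin alpha proteins are adaptors that link a classical nuclear localisation signal to importin beta. Several viruses are known to block transport through the pore.

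Levels are given on the log2 scale as the authors' RMA processing left them, and a difference is the EGOT gapmer mean minus the control gapmer mean on the log2 scale. EGOT itself read 6.29, 6.79 and 6.71 with the control gapmer and 4.91, 4.90 and 4.69 with its own, a difference of -1.76 (standard error 0.142, limma adjusted p = 0.0076). By a two-sided exact permutation test p was 0.1, and a smaller p is not possible with 3 arrays against 3. Hepatocyte marker genes such as ALB and AFP read 13.68 and 13.32 on average with the control gapmer, so the labelled liver origin was visible. EGOT gapmer replicate 2 stood apart: its median deviation from the gene means was 0.07, against -0.02 to -0.0026 in the other arrays. It was the highest of the 6 arrays in 30 of the 53 members (56.6%) and in 35.3% of all named genes.

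Most of the nuclear transport genes differed little between the gapmers. Of the 53, 1 rose and 3 fell with the EGOT gapmer (limma, adjusted over all 14812 genes, threshold 0.05), which is 7.55%. The background was 8.41% over all named genes, 5.2% higher and 3.21% lower, so the share of members that passed was near that of all genes. The nucleoporin genes NUP98 and NUP210 and the exportin gene XPO4 fell, and the nucleoporin gene NUP42 rose. None of the 53 differed by 1.5-fold or more, against 260 of the 14812 named genes. Of 6841 protein-coding genes above the median level 153 did, so such differences were rare in these wide sets. Among the 31 interferon-stimulated genes described below 9 did. The median log2 difference was 0.05 in the members and 0.04 over all genes, and the central part of the members, from the lower to the upper quartile, ran from -0.05 to 0.16.

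**Figure D1:**
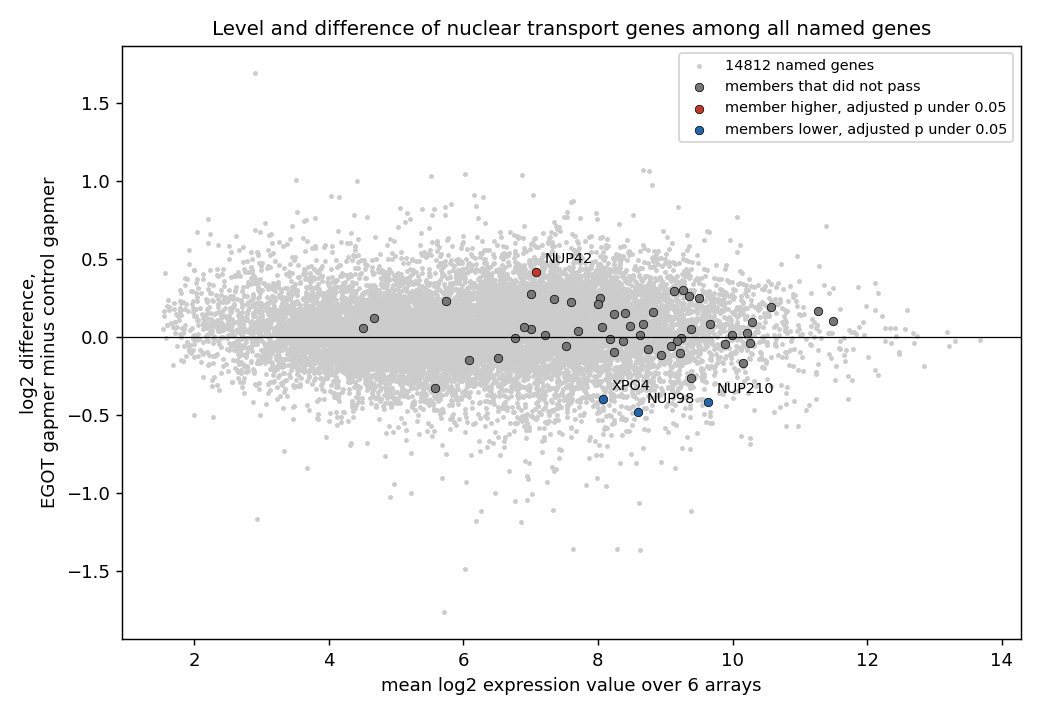
Mean log2 expression value over the 6 arrays (x axis) against the log2 difference between the EGOT and control gapmers (y axis) for all 14812 named genes (light grey) and the 53 members (outlined points, coloured by whether the adjusted p was under 0.05). The members lie between -0.48 and 0.42, inside the cloud of all genes, and 48 of the 53 lie above the median level of all genes.

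The probe sets of these genes were bright, with 48 of 53 above the median of all gene means, and bright probe sets pass more often. Among 6841 protein-coding genes above that median 14.7% passed, against 4 of the 48 brighter members (8.33%). The values of the 2 groups did not overlap in 26 members, 18 with the EGOT gapmer above and 8 with it below, which is 49.1%. The background for such separation was 31.7% over all named genes, 20.2% above and 11.5% below. Over the brighter protein-coding genes it was 50.5%, 33.1% above and 17.4% below, so the members were near the share of genes of like brightness. At an unadjusted p under 0.05 there were 17 members (32.1%), 12 higher and 5 lower, against 25.0% of all named genes, 16.2% higher and 8.79% lower, and 38.7% of the brighter protein-coding genes. A fit that let the variance depend on level called 14 members (26.4%) and 17.0% of all genes, and a fit to the brighter genes alone called 16 of 48 (33.3%) against 34.4%. Both called NUP88, NUP107, TNPO1, NUP37, KPNA3, KPNB1, IPO11 and XPO7 higher and XPO6 lower besides the 4 genes above. In bulk RNA less RNA per cell and fewer cells that express a gene cannot be told apart.

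The largest fall was in NUP98, which encodes a mobile nucleoporin with phenylalanine-glycine repeats and, from the same precursor, the outer ring protein Nup96. NUP98 is also known as a gene that interferon can induce and a target of viral proteins. It read 8.78, 8.86 and 8.85 with the control gapmer and 8.28, 8.35 and 8.42 with the EGOT gapmer. All control arrays lay above all EGOT gapmer arrays, with 0.36 between the lowest control array and the highest EGOT gapmer array. The log2 difference was -0.48, with standard error 0.0712 and a 95% interval from -0.65 to -0.31 (limma adjusted p = 0.0162), which is 71.7% of the control level. The single probe set does not separate the transcripts for Nup98 alone from those for the precursor of both proteins.

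NUP210 encodes gp210, a glycoprotein that spans the membrane of the pore. Its values were 9.82, 9.85 and 9.85 with the control gapmer and 9.46, 9.37 and 9.43 with the EGOT gapmer. The control arrays were close together, with an SD of 0.0198 (n = 3), and the groups were well apart. The log2 difference was -0.42, with standard error 0.0657 and a 95% interval from -0.57 to -0.26 (limma adjusted p = 0.0183), or 74.8% of the control level.

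XPO4 encodes exportin 4, a receptor of the importin beta family that exports cargo such as the translation factor eIF5A. It read 8.23, 8.30 and 8.28 with the control gapmer and 7.93, 7.86 and 7.84 with the EGOT gapmer, again without overlap. The log2 difference was -0.39, with standard error 0.0669 and a 95% interval from -0.55 to -0.24 (limma adjusted p = 0.0218), or 76.1% of the control level.

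The gene that rose was NUP42, which encodes a nucleoporin of the cytoplasmic filaments that binds the mRNA export factor GLE1. Control arrays read 6.87, 6.88 and 6.85 and EGOT gapmer arrays 7.30, 7.41 and 7.14. The EGOT gapmer arrays were more spread, with an SD of 0.140 against 0.0169 in the control (n = 3 each), and each lay above every control array. The log2 difference was 0.42, with standard error 0.0870 and a 95% interval from 0.21 to 0.62 (limma adjusted p = 0.0342), a 1.33-fold rise.

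Each of the 4 calls was lost in at least 4 of the 6 fits that left out an array. Without control gapmer replicate 1, 2 or 3, or without EGOT gapmer replicate 3, none of the 4 passed, with limma adjusted p-values from 0.0511 to 0.117. NUP98 and NUP210 passed without EGOT gapmer replicate 1 or 2, XPO4 passed without replicate 1 but had an adjusted p of 0.0502 without replicate 2, and NUP42 passed in 0 of the 6 fits that left out an array. The differences themselves moved little, from -0.51 to -0.45 for NUP98, -0.44 to -0.39 for NUP210, -0.42 to -0.38 for XPO4 and 0.35 to 0.49 for NUP42. NUP42 also missed the threshold, at 0.33, when each array was freed of its trend with gene span (limma adjusted p = 0.0589).

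**Figure D2:**
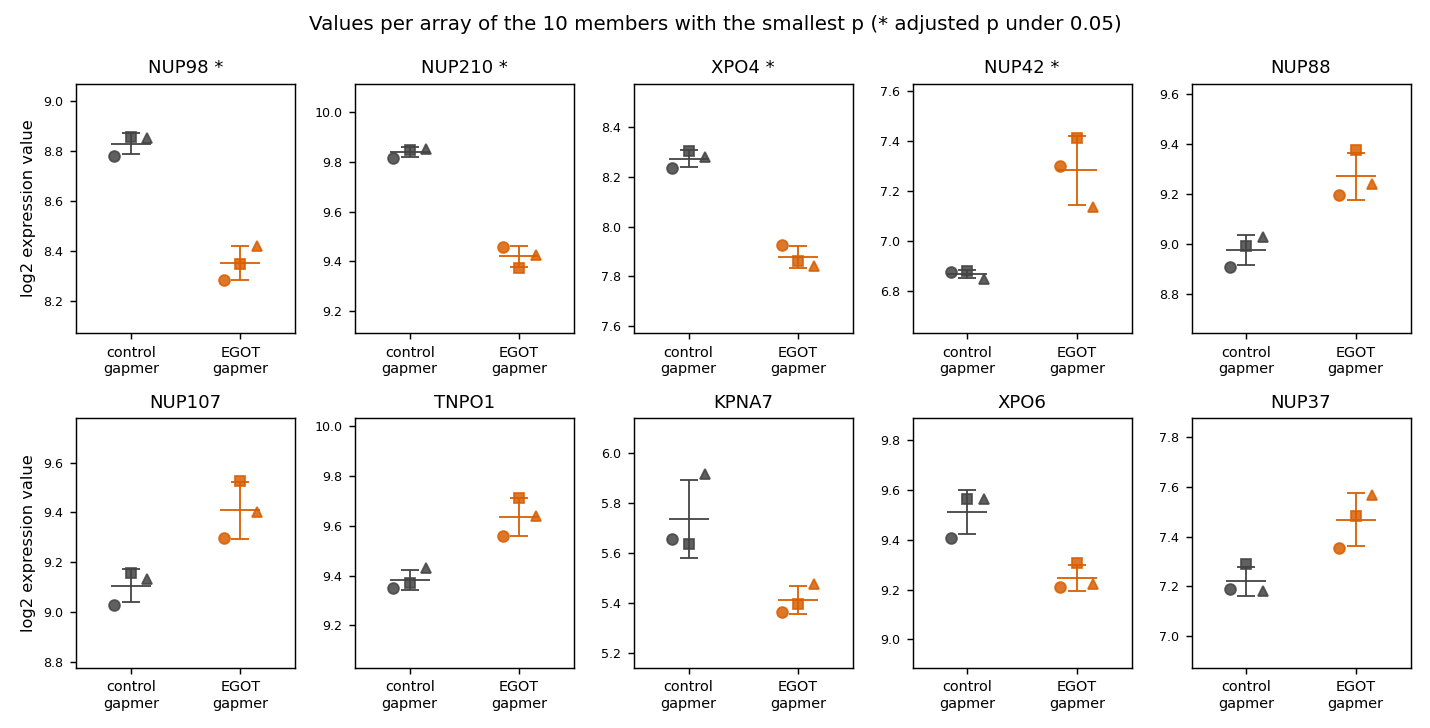
Log2 expression value (y axis, 1 log2 unit high in every panel) in each control gapmer array (grey) and EGOT gapmer array (orange) for the 10 members with the smallest p. Circles, squares and triangles are replicates 1, 2 and 3, the horizontal line is the mean and the bar is the SD over 3 arrays, and an asterisk marks an adjusted p under 0.05. In each of the 10 panels the groups do not overlap, which largely follows from choosing them by p in these same arrays. Over the brighter protein-coding genes 50.5% do not overlap.

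The promoters of the 4 genes that passed are shown so that their make-up can be seen beside the direction of change. Each line gives the 250 bases before the gene start, 5′ to 3′ on the gene's own strand, from RefSeq (GRCh38.p14), with CCAAT boxes and interferon response element cores (GAAANNGAA) on either strand in capitals. The regions are chr11:3797547-3797796 (minus strand) for NUP98, chr3:13420323-13420572 (minus strand) for NUP210, chr13:20902775-20903024 (minus strand) for XPO4 and chr7:23181798-23182047 (plus strand) for NUP42.
NUP98: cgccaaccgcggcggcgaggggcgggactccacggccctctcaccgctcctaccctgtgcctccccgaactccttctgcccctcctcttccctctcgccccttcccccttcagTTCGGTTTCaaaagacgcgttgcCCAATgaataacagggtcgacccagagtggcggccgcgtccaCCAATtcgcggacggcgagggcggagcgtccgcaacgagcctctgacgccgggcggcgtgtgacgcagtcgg
NUP210: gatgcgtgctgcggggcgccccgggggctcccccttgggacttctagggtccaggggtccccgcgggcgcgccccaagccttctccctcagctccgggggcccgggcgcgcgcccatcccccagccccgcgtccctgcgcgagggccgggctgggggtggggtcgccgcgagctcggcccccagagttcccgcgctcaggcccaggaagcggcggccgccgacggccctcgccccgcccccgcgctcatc
XPO4: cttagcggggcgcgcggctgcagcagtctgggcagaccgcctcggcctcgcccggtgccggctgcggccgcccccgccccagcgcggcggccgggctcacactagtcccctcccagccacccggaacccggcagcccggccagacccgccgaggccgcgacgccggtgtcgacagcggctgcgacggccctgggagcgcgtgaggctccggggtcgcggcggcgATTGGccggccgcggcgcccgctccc
NUP42: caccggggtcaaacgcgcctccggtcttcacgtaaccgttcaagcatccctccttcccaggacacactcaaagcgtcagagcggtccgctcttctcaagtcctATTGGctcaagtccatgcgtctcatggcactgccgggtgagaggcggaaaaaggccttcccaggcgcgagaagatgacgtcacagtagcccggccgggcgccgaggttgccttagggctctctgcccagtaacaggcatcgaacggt
NUP98 has the letters GAAANNGAA on the opposite strand, with their first base in the window 137 bases before the start, and CCAAT boxes that begin 114 and 72 bases before the start on its own strand. XPO4 has 1 on the opposite strand 26 bases before the start and NUP42 1 on the opposite strand 147 bases before it, while neither motif is in the NUP210 window.

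Promoter sequences were found for 46 of the 53 members, each 300 bases long from 250 before to 50 after the start, and were compared with 27305 promoters of the same length. For NUP35, NUP160 and TNPO3 the start used lay inside the annotated gene span, and each of these windows holds the ETS core counted below. The CCAAT box was in 23 of 46 (50.0%) and in 35.7% of all promoters, both strands searched. The interferon response element core GAAANNGAA was in 2 of 46 (4.35%), NUP98 and IPO7, and in 8.29% of all, whereas the form first searched, with an A after that core, was in 0 of 46 and in 3.65% of all. The shorter core was taken after those values were seen, as were the NRF1 and YY1 cores below in place of longer forms. Another motif linked to interferon, the GAS-like TTCNNNGAA, was in 5 of 46 (10.9%) and in 7.88% of all. The ETS core CCGGAAG was in 17 of 46 (37.0%) and in 10.7% of all, and the NRF1 core GCATGCGC in 4 of 46 (8.70%) and in 3.27%. The windows of NUP50 and NUP50-DT overlap and hold the same ETS and NRF1 sites, and counting them once left 16 and 3 of 45. The YY1 motif AAGATGGCG was in 4 of 46 (8.70%) and in 1.85% of all. The E2F motifs TTTCCCGC and TTTGGCGC were in 0 and 1 of 46, against 1.66% and 0.659%, and the TATA box TATAAA was in 2 of 46 (4.35%), against 12.0%. The members' promoters were also richer in CpG, with a median of 27 against 14 over all promoters, and a match is a string of letters and not a bound site. None of the 4 genes that passed had the letters CCGGAAG or GCATGCGC in its window.

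**Figure D3:**
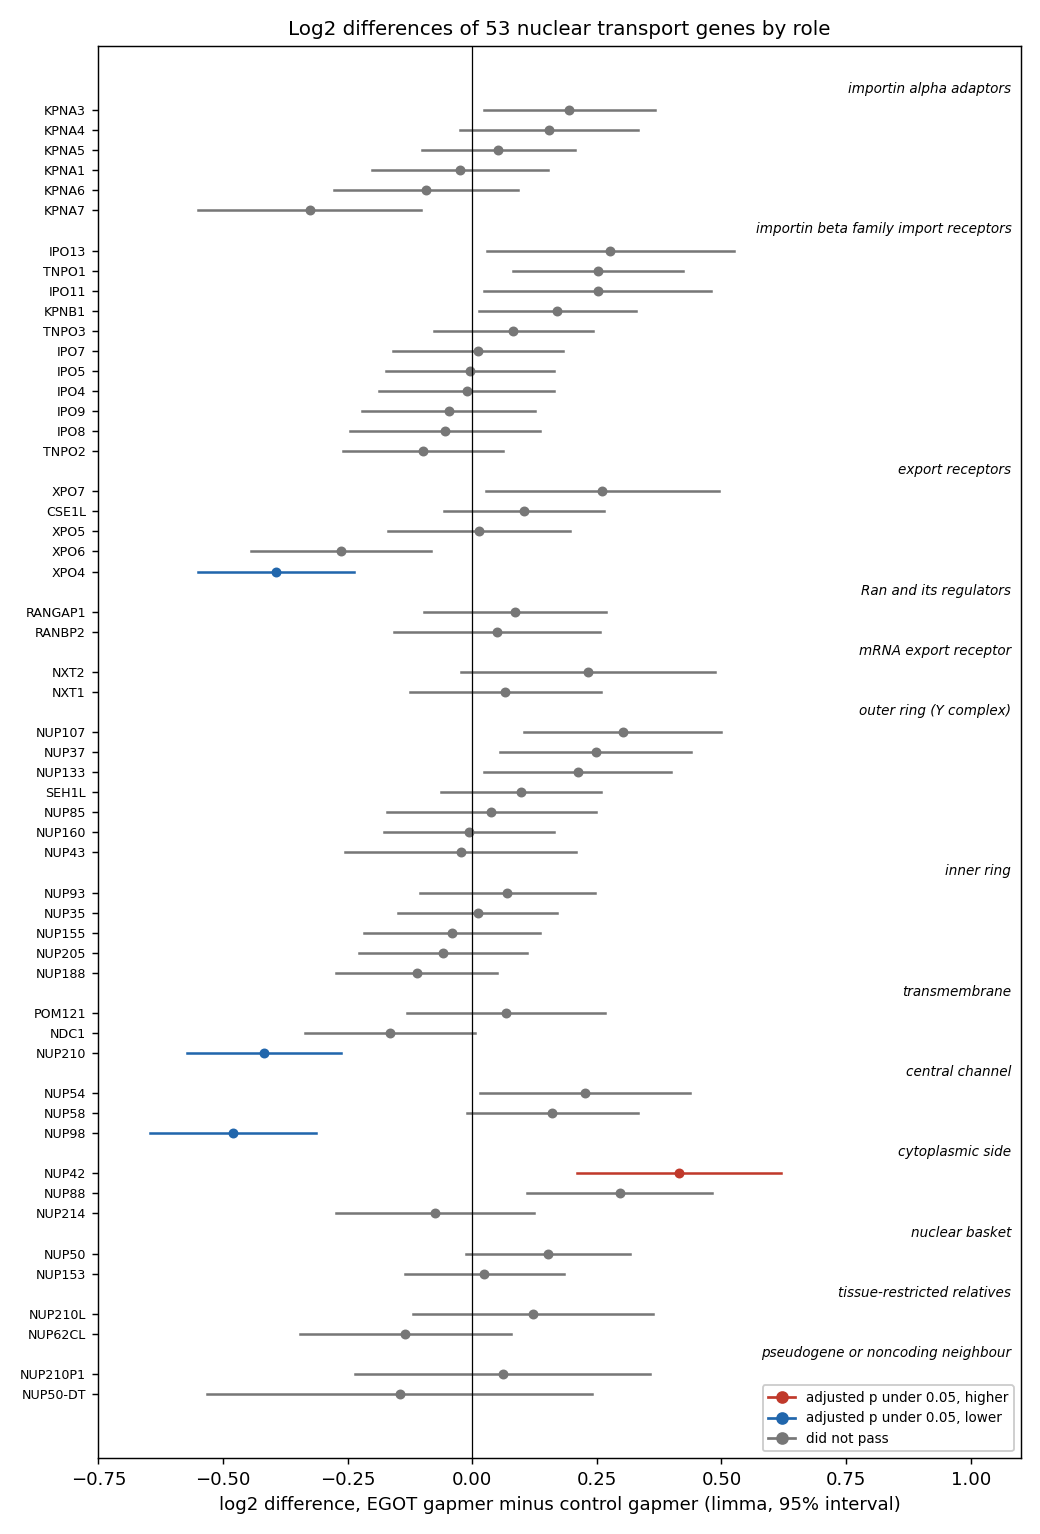
Log2 difference between the EGOT and control gapmers (x axis) with its 95% interval from limma for each of the 53 members (y axis), grouped by role. Points in blue (XPO4, NUP210, NUP98) and red (NUP42) had an adjusted p under 0.05, and the other 49 did not.

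Of the adaptors that read the nuclear localisation signal, 6 importin alpha genes were measured and 0 passed. Their differences ran from -0.33 to 0.19. KPNA3 and KPNA4, which are close relatives, had differences of 0.19 (95% interval 0.02 to 0.37, limma adjusted p = 0.152) and 0.15 (-0.02 to 0.33, limma adjusted p = 0.263). KPNA3 read 10.52, 10.51 and 10.41 with the control gapmer and 10.66, 10.75 and 10.62 with the EGOT gapmer, a separation without overlap that did not pass. KPNA1, KPNA5 and KPNA6 form another subfamily. Their differences were -0.03, 0.05 and -0.09, with 95% intervals of -0.20 to 0.15, -0.10 to 0.21 and -0.28 to 0.09, so a change of 1.5-fold in these 3 lay outside the intervals. KPNA7, an adaptor found mainly in egg cells and embryos, read 5.66, 5.64 and 5.92 with the control gapmer and 5.36, 5.40 and 5.47 with the EGOT gapmer. That difference of -0.33 did not pass (limma adjusted p = 0.0796), and its probe set was below the median level of all genes.

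The import receptors of the importin beta family comprised 11 genes, of which 0 passed and 6 had a difference above 0. KPNB1, importin beta itself, read 11.24, 11.20 and 11.14 with the control gapmer and 11.33, 11.38 and 11.37 with the EGOT gapmer. These groups did not overlap, yet the difference of 0.17 did not pass (limma adjusted p = 0.170). TNPO1, or transportin, which imports RNA-binding proteins, read 9.35, 9.37 and 9.43 against 9.56, 9.71 and 9.64, a difference of 0.25 (limma adjusted p = 0.0778). Its relatives TNPO2 and TNPO3, the latter an importer of splicing factors, had differences of -0.10 and 0.08. IPO11 and IPO13 had differences of 0.25 and 0.28, with groups that did not overlap and limma adjusted p-values of 0.162 and 0.157. IPO4, IPO5, IPO7, IPO8 and IPO9, which include importers of ribosomal proteins and histones, lay between -0.05 and 0.01. IPO7 read 10.03, 9.97 and 9.97 against 9.96, 10.10 and 9.96, so its arrays were mixed, and its difference of 0.01 turned negative after quantile normalization (-0.03) or cyclic loess (-0.04). IPO5 had 2 probe sets, and the dimmer had a difference of 0.10 where the brighter had -0.0044, neither passing.

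Differences of the export receptors ran from -0.39 for XPO4 to 0.26 for XPO7. Of 5 measured, XPO4 fell and 0 rose. XPO6, which exports actin with profilin, read 9.41, 9.56 and 9.56 with the control gapmer and 9.21, 9.31 and 9.22 with the EGOT gapmer. Its groups did not overlap, and its difference of -0.26 did not pass in the main fit to the deposited values (limma adjusted p = 0.0801). With the variance trend or among the brighter genes alone it passed in those values (limma adjusted p = 0.0066 and 0.0147). XPO6 also passed after quantile normalization, at -0.31 (limma adjusted p = 0.0434), and after cyclic loess, at -0.32 (limma adjusted p = 0.0376). XPO7 read 9.19, 9.30 and 9.18 against 9.30, 9.63 and 9.52, a difference of 0.26 (limma adjusted p = 0.158). XPO5, the exporter of microRNA precursors, had a difference of 0.01 (95% interval -0.17 to 0.20). CSE1L, which returns importin alpha to the cytoplasm, had one of 0.10 (95% interval -0.06 to 0.26), with all 3 EGOT gapmer arrays above the control arrays.

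The regulators of Ran and the cofactors of the mRNA exporter did not pass. RANGAP1, which makes Ran hydrolyse GTP on the cytoplasmic side, had a difference of 0.09 (95% interval -0.10 to 0.27). RANBP2, the large filament protein that anchors it, had one of 0.05 (-0.16 to 0.26), which was -0.0029 after cyclic loess and 0.26 once arrays were freed of that span trend (limma adjusted p = 0.0842). The RGPD genes are near-identical copies of parts of RANBP2, so the signal of these probe sets may be shared. NXT1 and NXT2, small partners of the mRNA export receptor, had differences of 0.07 and 0.23, with groups that overlapped in both.

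Among pore subunits no gene grouped under the outer or inner ring passed. NUP98, which fell and also encodes the outer ring protein Nup96, was grouped with the channel. In the outer ring, or Y complex, which coats the membrane and seeds new pores, 5 of 7 measured genes had a difference above 0. That is 71.4%, against 57.8% of all named genes and 61.9% of the brighter protein-coding genes. The ring's median difference was 0.10. NUP107 read 9.03, 9.16 and 9.13 with the control gapmer and 9.30, 9.52 and 9.40 with the EGOT gapmer, a difference of 0.30 (limma adjusted p = 0.0723). NUP37 read 7.19, 7.29 and 7.18 against 7.36, 7.48 and 7.57, a difference of 0.25 (limma adjusted p = 0.112). In both the groups did not overlap, as in NUP133 at 0.21 and SEH1L at 0.10, while NUP85, NUP160 and NUP43 lay between -0.02 and 0.04 with overlapping groups. EGOT gapmer replicate 2 was the highest array in 6 of these 7 genes. Without that array 5 of 7 were above 0, with NUP85 at only 0.0016, and 0 passed. The median was then 0.06 and NUP107 was at 0.24. NUP85 turned to -0.011 after quantile normalization and -0.014 after cyclic loess, while NUP107, NUP133, NUP37 and SEH1L stayed above 0. The inner ring, which links the outer ring to the channel, had 5 measured genes, with differences from -0.11 for NUP188 to 0.07 for NUP93 and a median of -0.04.

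Of the membrane-anchored and channel subunits NUP210 and NUP98 fell and 0 rose. NDC1, which is needed to insert pores into the envelope, read 10.24, 10.23 and 10.26 against 10.03, 10.18 and 10.03, without overlap and without passing (difference -0.17, limma adjusted p = 0.211). POM121 had a difference of 0.07, and its near-identical copy POM121C can share its signal. In the channel NUP54 and NUP58, which form a complex with Nup62, had differences of 0.23 and 0.16 (limma adjusted p = 0.172 and 0.228), opposite in sign to NUP98, and in all 3 the groups did not overlap.

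On the cytoplasmic side NUP88, a scaffold of the filaments, read 8.91, 8.99 and 9.03 with the control gapmer and 9.20, 9.38 and 9.24 with the EGOT gapmer. Its groups did not overlap, and its difference of 0.30 did not pass (95% interval 0.11 to 0.48, limma adjusted p = 0.0633). NUP214, its partner in the same subcomplex, had a difference of -0.07 with overlapping groups in its brighter probe set and 0.19 in its dimmer one, neither passing. In the nuclear basket NUP50 had a difference of 0.15 and NUP153, which docks export complexes and importins, one of 0.02. NUP153 turned to -0.01 after quantile normalization and -0.02 after cyclic loess.

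Of the relatives with restricted expression and the non-coding members 0 passed. NUP210L and NUP62CL had differences of 0.12 and -0.13, the pseudogene NUP210P1 one of 0.06 and NUP50-DT, transcribed away from NUP50, one of -0.15, all with overlapping groups. NUP50-DT varied most between the EGOT gapmer arrays, which read 5.98, 6.34 and 5.70.

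**Figure D4:**
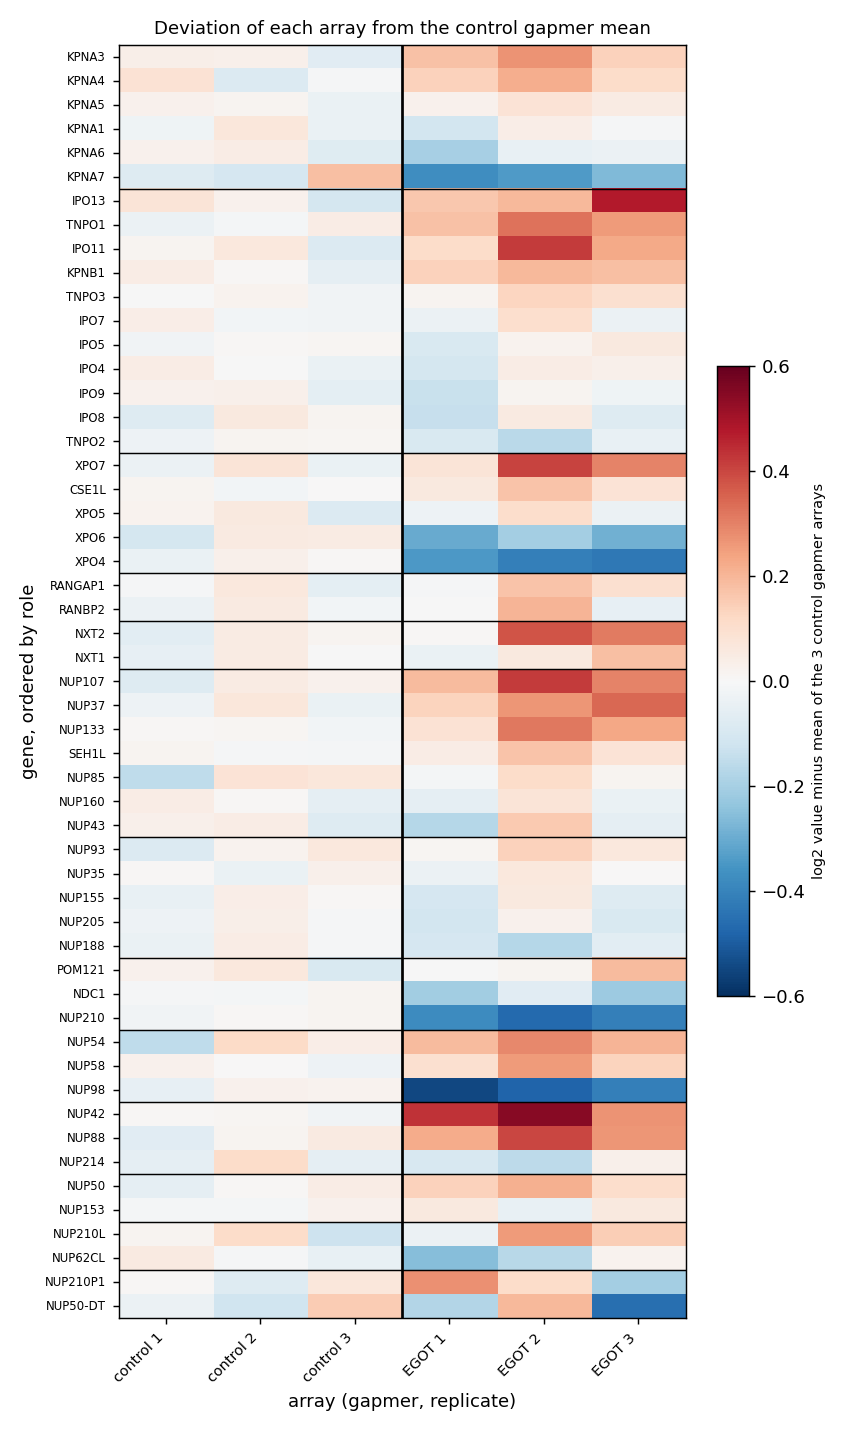
Log2 value of each array minus the mean of the 3 control gapmer arrays (colour scale, red above and blue below) for the 53 members (rows, ordered by role, with lines between roles) in each of the 6 arrays (columns). NUP98, NUP210 and XPO4 are blue and NUP42 red in all 3 EGOT gapmer arrays, and EGOT gapmer replicate 2 is the highest of the 6 arrays in 30 of the 53 genes.

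Neighbouring genes of the same pathway, from lists drawn up by function, gave a few more calls. The shares over all named genes, to set beside their counts, were 8.41% passed, 25.0% at an unadjusted p under 0.05 and 57.8% above 0, and 14.7%, 38.7% and 61.9% over the brighter protein-coding genes. Of 14 other measured genes of the Ran cycle and transport receptors 3 rose and 0 fell (21.4%), with a median difference of 0.02. RANBP6, a close relative of importin 5, rose by 0.49, AKIRIN2, which brings proteasomes into the nucleus, by 0.43 and SNUPN, the import adaptor for spliceosomal particles, by 0.38 (limma adjusted p = 0.0212, 0.0199 and 0.0463). SNUPN did not pass after quantile normalization or cyclic loess, and SNUPN and RANBP6 passed in 0 and AKIRIN2 in 2 of the 6 fits that left out an array. Of 13 other measured pore and pore assembly genes SUMO2, which encodes a ubiquitin-like modifier, rose by 0.68 and 0 fell, with a median of -0.02, and it passed in 2 of those 6 fits. RAE1 and GLE1 did not pass and are named only because their proteins bind Nup98 and Nup42. RAE1 had a difference of 0.27 (limma adjusted p = 0.0596), opposite in sign to NUP98, and GLE1 one of -0.03. Of 19 mRNA export adaptor genes 0 passed by limma and 6 at an unadjusted p under 0.05 (31.6%). Of them 15 were above 0 (78.9%), with a median of 0.14. EGOT gapmer replicate 2 was the highest array in 13 of these 19 (68.4%), against 35.3% of all named genes. With the variance trend 5 were called higher, and that setting called 17.0% of all genes in either direction. Brightness matters here too, as 17 of the 19 lay above the median level. Of 19 lamina and nuclear envelope genes 0 passed, 3 at an unadjusted p under 0.05, with 15 above 0 (78.9%) and a median of 0.11. EGOT gapmer replicate 2 was highest in 4 of these.

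The wider setting was read from lists in the same fit. Of 31 interferon-stimulated genes 16 fell and 0 rose, with a median difference of -0.45, and 1 to 12 of them passed when an array was left out, fewest without control gapmer replicate 2. Of 24 proliferation genes 4 rose and 1 fell, with a median of 0.06, whereas after cyclic loess 2 rose and 3 fell. Of 8 hepatocyte marker genes 1 rose, APOA1, with a median of -0.0062, and it did not pass after quantile normalization or cyclic loess or in any of the fits that left out an array. Of 4 measured leukocyte marker genes 2 rose, CD68 and LYZ, and the mean of the list ran from 6.90 to 6.99 over the control arrays and from 7.34 to 7.49 over the EGOT gapmer arrays. CD68 passed in 5 and LYZ in 3 of the 6 fits that left out an array. CD2 and CD14 read 5.15 and 5.65 with the control gapmer and did not pass. Of 2 endothelial and 2 fibroblast or stellate marker genes 0 passed, by limma or at an unadjusted p under 0.05, with control means of 2.37 for DCN to 4.48 for VWF. The part of these genes in the differences of the nuclear transport genes was not tested.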

How the data were processed

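The authors deposited log2 expression values per probe set. The submitters' processing notes name RMA, a method that subtracts background, brings arrays to a shared distribution and summarises probes, so a change in total RNA per cell would be hidden. Its version and filters were not given in the sources used here, and the log2 scale also follows from the values. As deposited, the median over all probe sets ran from 5.08 to 5.23 between arrays, highest in EGOT gapmer replicate 2. The table holds 44629 probe sets in 6 arrays. Of these, 15835 carried 1 gene symbol in GEO's platform annotation, matched to RefSeq (GRCh38.p14), 0 carried several and 28794 were unnamed. A gene with several probe sets was represented by the brightest over all arrays.

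The groups, 3 arrays each, were compared over 14812 genes with limma 3.58.1 in R 4.3.3 (lmFit, eBayes, two-sided, Benjamini-Hochberg, threshold 0.05, 7.19 degrees of freedom). The number of arrays limits the precision. The fit was tested on simulated data. Members, lists, motifs and roles were chosen with earlier results of these data known. Named members are those that passed, the 10 with the smallest p and a set fixed by role; NUP133, SEH1L, NUP54, NUP58, XPO7, IPO11 and the other members named were given to account for every member. The alternatives were 2 normalizations, a variance trend, a brightness filter, other uses of probe sets, removal of the trend on gene span by lowess, a replicate block and leaving out each array.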

Additional observations from a re-analysis of the deposited data

How the results depend on the processing

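In the main values 1245 genes, 1 member higher and 3 lower passed, and the members' median was 0.05. With a variance trend 2513 genes, 9 members higher and 5 lower passed, and among the brighter genes alone 2547 genes, 12 members higher and 4 lower. EGOT and the members KPNA7, NXT2, NUP210L, NUP210P1 and NUP50-DT were below that brightness filter. With the trend on gene span removed 671 genes, 0 members higher and 3 lower passed. Leaving out 1 array gave 9 to 579 genes, 0 to 0 members higher and 0 to 3 lower, and EGOT from -1.92 to -1.67, where fewer samples leave fewer degrees of freedom. After cyclic loess the members' median was -0.0029 and that of all genes 0.0025. The share of calls that were higher was 61.8% as deposited, 50.2% after quantile normalization and 48.8% after cyclic loess.

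With the replicate number as a block 0 genes, 0 members higher and 0 lower passed by limma, with 3438 genes at an unadjusted p under 0.05, and EGOT stayed at -1.76 (adjusted p = 0.0543). Same-numbered arrays had correlations of deviations of -0.031, -0.054 and 0.039, and not every array correlated best with its own number. With 3 arrays in each group these values cannot tell whether same-numbered arrays belong together.

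NUP98, NUP210, XPO4 and NUP42 kept their direction in all 14 alternatives. Of the 26 members chosen for naming by a call, a small p or role, 7 changed sign in at least 1, none passing in any. Outside these 26, IPO4, NUP35, NUP43, NUP85, NUP160, XPO5, NUP210P1 and NUP50-DT also changed sign, none passing in any. After quantile normalization NUP153 was at -0.011 and IPO7 at -0.029, after cyclic loess NUP153 at -0.023, IPO7 at -0.038 and RANBP2 at -0.0029, and with the gene span trend removed NXT1 at -0.019, IPO7 at -0.0054, KPNA1 at 0.0032 and RANBP2 at 0.26, where it had been 0.05. As the mean of probe sets NUP214 was at 0.056 and IPO5 at 0.049. With 1 array left out KPNA1 ran from -0.059 to 0.017, IPO5 from -0.037 to 0.040, RANBP2 from -0.027 to 0.10 and IPO7 from -0.035 to 0.035.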
